A study of Mus musculus with 15 samples.

Results

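Granule cells are the principal neurons of the dentate gyrus, and 8 genes that mark them or are highly expressed in them were followed here in the hippocampus of old Tg2576 and wild-type (WT) mice. They were Prox1, C1ql2, Dsp, Trpc6, Calb1, Tdo2, Stxbp6 and Dock10, 8 of the 55401 genes in the count files, and all 8 were among the 19536 genes tested. The list was taken as named, and its first 7 genes were included as dentate gyrus markers. Dock10 was chosen by its level, which was lower in vehicle-treated Tg2576 mice than in vehicle-treated WT mice, so that difference is a description here and carries no test for any member.

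The hippocampi came from 15 female mice. The study's methods give their age as 18 to 20 months, and its discussion gives a higher age where it treats spine density. Tg2576 mice (labelled Tg2576 +/+) carry human APP with the Swedish mutation under the hamster prion protein promoter, and WT mice (Tg2576 -/-) were transgene-negative littermates. Mice of each genotype received vehicle (sesame oil) or docosahexaenoic acid (DHA) in that oil at 450 mg/kg a day for 5 weeks. There were 4 mice for each genotype and treatment, except for 3 Tg2576 mice given DHA. The comparisons ask what the transgene does under each treatment and what DHA does in each genotype. Each library was 1 mouse, the total count was 17372864 to 46596489 (median 25645977), and levels are given as counts scaled to library size (CPM, after TMM scaling). App itself was 1608 to 1787 CPM in the WT vehicle mice and 2076 to 2615 CPM in the Tg2576 vehicle mice, and under DHA 1572 to 1724 CPM against 2286 to 2787 CPM, so no library went against its genotype label.

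Granule cells receive the perforant path from the entorhinal cortex and send mossy fibres to the pyramidal neurons of CA3. Prox1 is a homeobox transcription factor that sets and maintains granule cell identity, and calbindin, the product of Calb1, is a calcium buffer that accumulates as these cells mature. In several other mouse lines with human APP, calbindin staining of granule cells is known to fall. In whole hippocampus, fewer granule cells and less of an RNA per cell cannot be told apart. RNA from any other cell that expresses a member is counted too.

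On GRCm38, with the GENCODE identifiers of the files, Prox1 (ENSMUSG00000010175.13) spans chr1:190118035-190170714 on the minus strand, Dock10 (ENSMUSG00000038608.15) spans chr1:80501073-80758527 on the minus strand and C1ql2 (ENSMUSG00000036907.9) spans chr1:120340582-120343174 on the plus strand. Stxbp6 (ENSMUSG00000046314.16) spans chr12:44852484-45074709 on the minus strand, Dsp (ENSMUSG00000054889.10) spans chr13:38151294-38198577 on the plus strand and Trpc6 (ENSMUSG00000031997.9) spans chr9:8544142-8680741 on the plus strand. Calb1 (ENSMUSG00000028222.2) spans chr4:15881264-15908064 on the plus strand and Tdo2 (ENSMUSG00000028011.16) spans chr3:81957090-81976202 on the minus strand. Reads were counted over all annotated exons of a gene without regard to strand, and reads that overlapped more than 1 gene were not counted.

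The stretch upstream of the start site is shown for Prox1, Stxbp6 and Dock10, the 3 members whose difference between DHA and vehicle in WT mice was largest relative to its standard error, and for C1ql2, the member with the highest level per kilobase. Each sequence is the 250 bases before the RefSeq start on the GRCm38.p6 assembly, read 5′ to 3′ in the direction of the gene. For Stxbp6 that start lies 226 bases inside the GENCODE span given above, so most of its window is within the annotated gene. Capitals mark E-boxes (CANNTG, which reads the same on both strands), the motif bound by basic helix-loop-helix factors such as those of the NeuroD family. Prox1 lies on the minus strand and its window is chr1:190170828-190171077, Stxbp6 lies on the minus strand with chr12:45074484-45074733, Dock10 lies on the minus strand with chr1:80758554-80758803, and C1ql2 lies on the plus strand with chr1:120340332-120340581.
Prox1: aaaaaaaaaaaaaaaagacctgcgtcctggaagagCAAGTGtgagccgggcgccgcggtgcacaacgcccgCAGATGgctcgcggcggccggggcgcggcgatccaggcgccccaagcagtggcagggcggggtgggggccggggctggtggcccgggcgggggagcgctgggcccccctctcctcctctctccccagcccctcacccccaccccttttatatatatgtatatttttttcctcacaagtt
Stxbp6: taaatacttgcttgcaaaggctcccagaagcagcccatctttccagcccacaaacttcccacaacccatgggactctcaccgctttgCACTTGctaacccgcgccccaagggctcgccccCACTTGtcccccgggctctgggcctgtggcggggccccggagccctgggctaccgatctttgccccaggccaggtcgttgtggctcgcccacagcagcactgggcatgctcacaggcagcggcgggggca
Dock10: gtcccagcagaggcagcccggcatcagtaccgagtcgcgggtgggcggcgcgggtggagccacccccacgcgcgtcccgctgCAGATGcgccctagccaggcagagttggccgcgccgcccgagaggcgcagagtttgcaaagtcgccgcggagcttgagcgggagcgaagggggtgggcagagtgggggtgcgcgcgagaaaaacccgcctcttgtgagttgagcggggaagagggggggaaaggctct
C1ql2: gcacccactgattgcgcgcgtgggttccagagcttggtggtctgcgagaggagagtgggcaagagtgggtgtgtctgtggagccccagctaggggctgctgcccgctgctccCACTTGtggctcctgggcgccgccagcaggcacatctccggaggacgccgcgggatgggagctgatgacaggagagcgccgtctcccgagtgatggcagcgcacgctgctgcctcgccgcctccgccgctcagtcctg

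Windows were found for 7 of the 8 members, all but Calb1. An E-box was present in 4 of these 7 windows (2 in Prox1, 2 in Stxbp6, 1 in Dock10 and 1 in C1ql2), and in 66.0% of the windows of 27025 genes. The GC-box GGGCGG, searched on both strands, was in 3 of the 7 (Prox1, Dsp and Dock10) and in 32.9% of all windows, and the cyclic AMP response half-site TGACG was in 1 of the 7 (Trpc6) and in 17.9%. These matches describe the letters of the windows and were not set against the expression values.

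Per kilobase of exon, the order of levels over the 15 mice was C1ql2, Calb1, Stxbp6, Prox1, Dock10, Dsp, Trpc6 and Tdo2. The length is that of all annotated exons, not of the transcripts expressed, so this order depends on the annotation. In CPM without division by length, Dock10 had the highest mean, 90.0 CPM, and Calb1 the next, 84.3 CPM. C1ql2, a secreted protein of the mossy fibre synapse with a C1q domain, had a mean of 41.8 CPM per kb and a range of 21.7 to 71.2 CPM per kb. Calb1 had 17.4 ± 1.62 CPM per kb (SD, n = 15), Stxbp6 14.1 ± 1.78 and Prox1 8.53 ± 1.61 CPM per kb. Dock10 had 4.93 ± 1.05, Dsp 3.87 ± 1.19, Trpc6 3.84 ± 0.795 and Tdo2 0.833 ± 0.226 CPM per kb. The ranges over mice did not overlap between C1ql2 and Calb1 or between Trpc6 and Tdo2, and overlapped between all other neighbours in the order. Stxbp6 was nonetheless above Prox1, and Prox1 above Dock10, in each of the 15 mice, whereas Dsp was above Trpc6 in 5 of 15.

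Members differed in how much they varied among mice of the same group. Within groups, the SD of log2 CPM was 0.44 for C1ql2, above that of 98.9% of genes of like level, and 0.31 for Dsp, above 93.7%. It was 0.15 for Calb1, 0.16 for Dock10, 0.17 for Stxbp6 and 0.19 for Prox1, between the 53.0 and 69.7 percentiles. Tdo2, at 30 to 140 reads per mouse, had an SD of 0.47, the 75.0 percentile at its level, and Trpc6 an SD of 0.27.

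**Figure D1:**
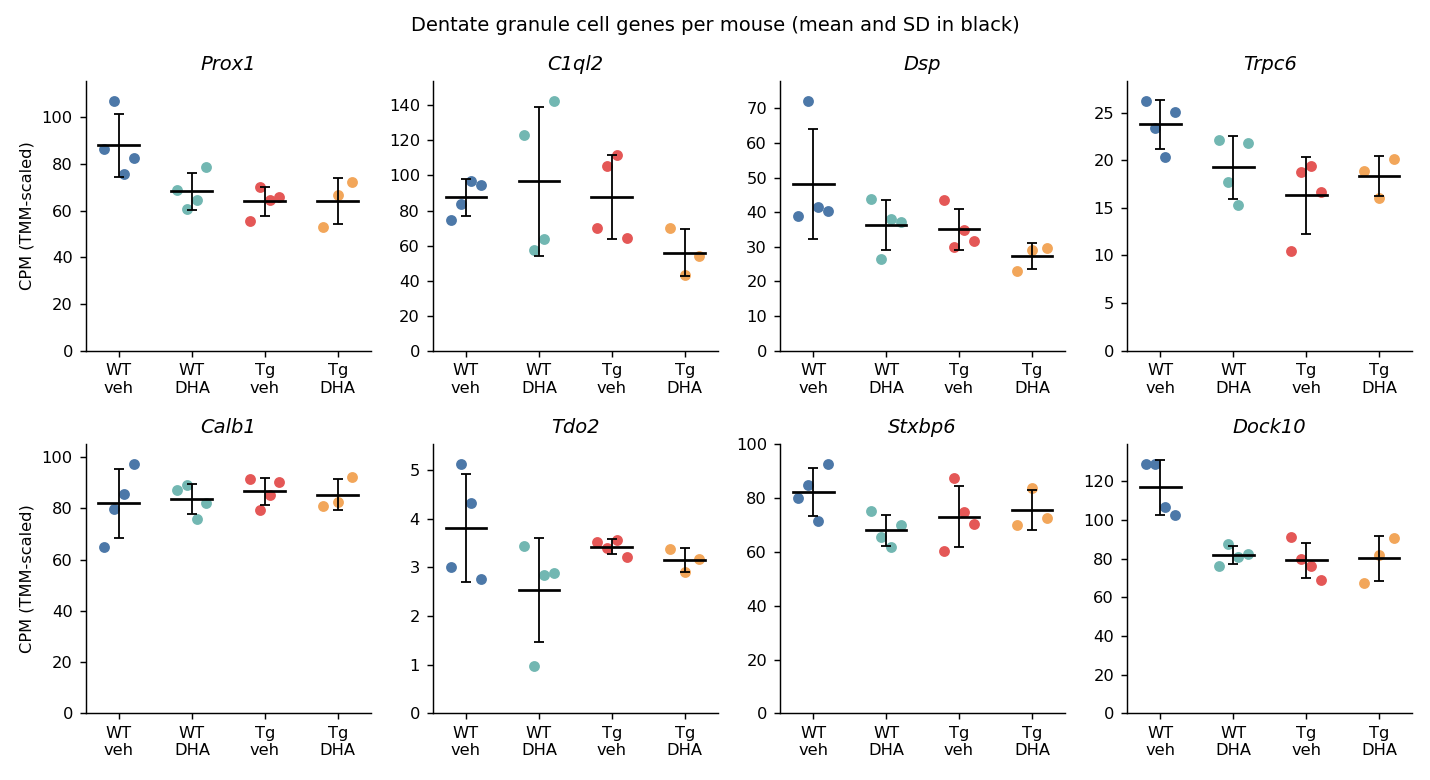
Level of each member in each of the 15 mice (vertical axes, TMM-scaled CPM from 0), with points for single mice and black lines for the group mean and SD; veh is vehicle and Tg is Tg2576. Dock10 is 102 to 129 CPM in the 4 WT vehicle mice and 67.6 to 91.0 CPM in the remaining mice, and Calb1 has group means of 82.0 to 86.6 CPM.

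Transcription factor first, Prox1 was highest in WT vehicle mice. It measured 86.4, 107, 75.8 and 82.6 CPM in the 4 WT vehicle mice and 68.9, 60.8, 64.5 and 79.0 CPM in the 4 WT DHA mice. The Tg2576 mice had 55.6, 70.2, 64.8 and 65.8 CPM under vehicle and 53.1, 66.6 and 72.5 CPM under DHA. All vehicle-treated Tg2576 mice lay below all vehicle-treated WT mice, whereas the WT DHA and WT vehicle mice overlapped through a single WT DHA mouse at 79.0 CPM. Between genotypes under vehicle the log2 difference was -0.46 ± 0.12 (SE).

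Under DHA, Prox1 in WT mice fell by 0.37 ± 0.12 on the log2 scale (SE; edgeR quasi-likelihood test, unadjusted p = 0.00767, adjusted p = 0.669), and each of the 4 WT DHA mice lay below the WT vehicle mean. The exact two-sided permutation test gave p = 0.0571 for 4 against 4 mice, where its smallest value is 0.0286. Prox1 was the only 1 of the 7 members tested in this comparison that passed p under 0.01, where 1.38% of all genes passed and 0.599% passed as lower. With Stxbp6, 2 of the 7 had an unadjusted p under 0.05 (5.92% of all genes), and after adjustment 0 members and 0% of all genes passed. With an offset for gene length the difference was -0.30 and the unadjusted p 0.0181, past the threshold no longer. Among Tg2576 mice the difference under DHA was -0.0019 ± 0.13 (edgeR, unadjusted p = 0.989), and under DHA the genotypes differed by -0.09 ± 0.13 (edgeR, adjusted p = 0.926). Prox1 shares 133 exonic bases with the antisense gene Prox1os, to which 1826 reads were assigned over the 15 mice, and the counting did not use strand.

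Dock10, an exchange factor that activates the small GTPases Cdc42 and Rac1, was also highest in WT vehicle mice. It measured 129, 129, 107 and 102 CPM in WT vehicle mice and 76.0, 87.5, 81.0 and 82.2 CPM in WT DHA mice. The Tg2576 mice had 91.0, 79.7, 76.3 and 69.0 CPM under vehicle and 67.6, 82.0 and 90.6 CPM under DHA. The WT vehicle mice lay above every mouse of the other groups, and the 3 other groups overlapped. The log2 difference was -0.56 ± 0.11 (SE) between genotypes under vehicle, the contrast by which Dock10 was chosen, and -0.52 ± 0.11 between DHA and vehicle in WT mice. Both share the WT vehicle mice, so neither carries a test. In DHA-treated mice, none of which entered the choice, Tg2576 and WT differed by -0.03 ± 0.12 (edgeR, adjusted p = 0.979).

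Dock10 has 18267 exonic bases, the longest of the members, and its level varied with a property of the libraries. In each mouse a slope of log2 level on log2 exonic length was computed over all genes tested, relative to the mean of the mice. This slope was -0.031 to 0.059 in WT vehicle, -0.046 to 0.034 in WT DHA, -0.075 to 0.014 in Tg2576 vehicle and -0.091 to 0.076 in Tg2576 DHA mice. As deviations from the group means over the 15 mice, Dock10 and the slope had a Pearson r of 0.74 (Spearman rho 0.78), against 0.35 for Prox1 and -0.43 for C1ql2. Both measures come from the same libraries. With an offset for gene length, the Dock10 difference was -0.37 between genotypes under vehicle and -0.37 between DHA and vehicle in WT mice.

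C1ql2 varied widely under DHA in WT mice. It measured 74.5, 83.9, 96.7 and 94.7 CPM under vehicle and 123, 57.4, 63.6 and 142 CPM under DHA in WT mice. Among Tg2576 mice it measured 70.1, 105, 112 and 64.3 CPM under vehicle and 70.2, 43.5 and 54.0 CPM under DHA. The 4 WT DHA mice fell into a pair above and a pair below all WT vehicle mice, and the groups of each comparison overlapped. Under DHA, Tg2576 mice were lower than WT mice by 0.79 ± 0.31 on the log2 scale, which did not pass (edgeR, unadjusted p = 0.0242, adjusted p = 0.671). The difference was -0.65 ± 0.31 for DHA in Tg2576 mice (adjusted p = 0.999), 0.14 ± 0.28 for DHA in WT mice (adjusted p = 0.957) and 0.01 ± 0.28 between genotypes under vehicle.

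No member passed p under 0.01 between genotypes under DHA in edgeR, DESeq2 or limma-voom, where 1.75% of all genes did so in edgeR, and 1 (C1ql2) had an unadjusted p under 0.05, where 6.86% did. After adjustment 0 members and 0.00512% of all genes passed. Without WT DHA replicate 2 or 3, the 2 WT DHA mice with low C1ql2, C1ql2 passed with log2 differences of -0.97 and -0.94. Without WT DHA replicate 4 or 1, the 2 with high C1ql2, its differences were -0.54 and -0.65 (edgeR, unadjusted p = 0.0816 and 0.0696). No member separated the groups without overlap in this comparison, which 8.56% of all genes did.

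Dsp encodes desmoplakin, which ties desmosomes to intermediate filaments. It measured 38.8, 72.1, 41.4 and 40.4 CPM in WT mice on vehicle and 43.8, 26.4, 38.0 and 37.2 CPM in those on DHA. In Tg2576 mice on vehicle the values were 43.5, 29.9, 34.9 and 31.6 CPM, and on DHA 23.1, 29.1 and 29.8 CPM. A single WT vehicle mouse stood far above the rest, and the 3 Tg2576 DHA mice were below all 4 Tg2576 vehicle mice. The differences were -0.46 ± 0.20 between genotypes under vehicle, -0.41 ± 0.21 between genotypes under DHA (edgeR, adjusted p = 0.758), -0.40 ± 0.20 for DHA in WT mice (adjusted p = 0.857) and -0.35 ± 0.21 for DHA in Tg2576 mice (adjusted p = 0.999). Without the high mouse, WT vehicle replicate 2, the first was -0.19 and the WT difference under DHA -0.15. In Tg2576 mice Dsp was the only member of the 8 whose groups did not overlap under DHA, where 1.52% of all genes did not overlap in that direction. Dsp shares 499 exonic bases with the antisense gene Gm10129, to which 22 reads were assigned over the 15 mice, and reads over the shared bases were counted for neither.

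Trpc6 encodes a cation channel gated by diacylglycerol. It measured 26.2, 23.4, 20.3 and 25.0 CPM in WT mice on vehicle and 22.1, 17.7, 15.3 and 21.8 CPM in those on DHA. In Tg2576 mice on vehicle the values were 10.5, 18.7, 19.3 and 16.6 CPM, and on DHA 18.8, 16.0 and 20.2 CPM. Vehicle-treated Tg2576 mice were all below the vehicle-treated WT mice, with a log2 difference of -0.54 ± 0.17, and -0.38 without the mouse at 10.5 CPM. For DHA the difference was -0.30 ± 0.17 in WT mice (edgeR, adjusted p = 0.863) and 0.16 ± 0.18 in Tg2576 mice (adjusted p = 0.999), and between genotypes under DHA it was -0.07 ± 0.18 (adjusted p = 0.961).

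Stxbp6 encodes amisyn, a SNARE-binding protein of exocytosis. It measured 80.2, 84.9, 71.4 and 92.8 CPM in WT mice on vehicle and 75.0, 65.4, 61.8 and 69.8 CPM in those on DHA. In Tg2576 mice on vehicle the values were 60.2, 87.3, 74.8 and 70.2 CPM, and on DHA 70.1, 83.8 and 72.8 CPM. DHA and vehicle overlapped in WT mice through a single mouse on each side, and the difference of -0.28 ± 0.11 did not pass (edgeR, unadjusted p = 0.0241, adjusted p = 0.808). In Tg2576 mice the difference under DHA was 0.05 ± 0.12 (adjusted p = 0.999). Between genotypes it was -0.17 ± 0.11 under vehicle and 0.15 ± 0.12 under DHA (edgeR, adjusted p = 0.844).

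Calb1 and Tdo2 did not pass in any tested comparison. Calb1 was 65.1, 79.7, 85.8 and 97.4 CPM in WT mice on vehicle and 87.0, 89.3, 76.0 and 82.0 CPM in those on DHA. In Tg2576 mice on vehicle the values were 91.4, 79.5, 85.1 and 90.3 CPM, and on DHA 81.1, 82.5 and 92.3 CPM. The 4 groups overlapped, and its differences lay between -0.02 and 0.08 with SEs of 0.10 to 0.11. Under DHA the genotype difference was 0.03, with bounds of 2 SE at -0.20 and 0.25. These are RNA levels of whole hippocampus, and calbindin in granule cells was not measured. Tdo2, the first enzyme of the kynurenine pathway of tryptophan breakdown, was 3.02, 5.13, 4.32 and 2.77 CPM in WT vehicle mice and 3.43, 0.974, 2.84 and 2.88 CPM with DHA. The Tg2576 mice had 3.21 to 3.57 CPM on vehicle and 2.90 to 3.38 CPM on DHA, a narrower range than in WT mice. The lowest mouse was in the WT DHA group, and the difference under DHA in WT mice was -0.59 ± 0.30 (edgeR, adjusted p = 0.862), or -0.31 without that mouse. Between genotypes under DHA it was 0.33 ± 0.32 (edgeR, adjusted p = 0.878), or 0.04 without that lowest mouse.

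**Figure D2:**
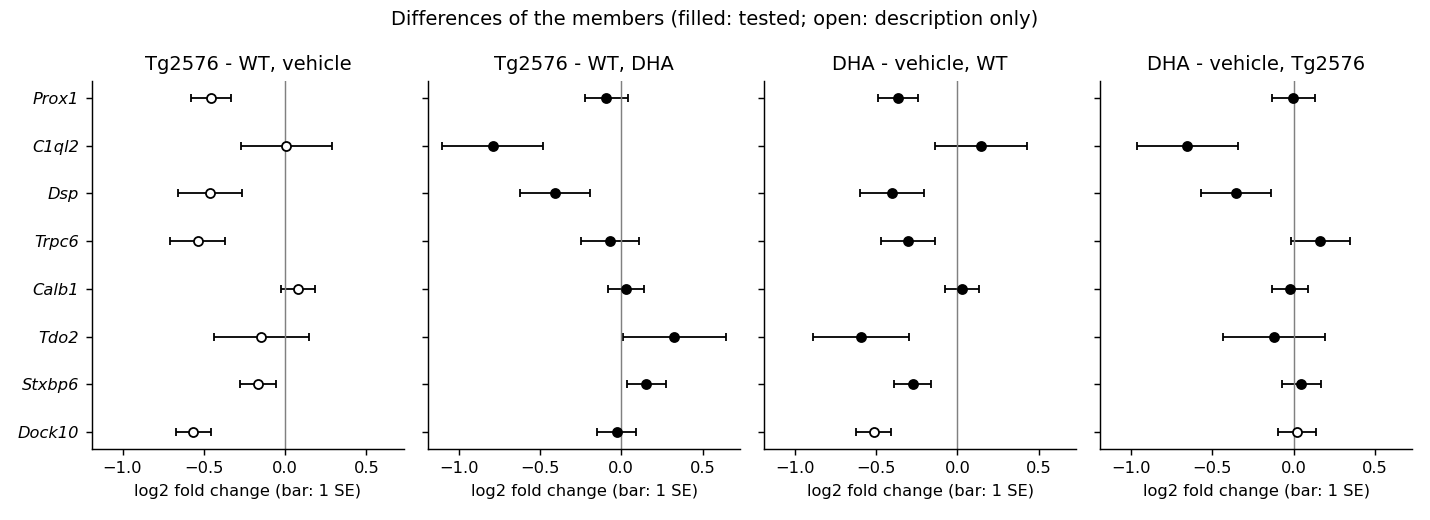
Log2 fold change of each member in the 4 comparisons (horizontal axes; points, with bars of 1 SE from the edgeR fit to all 15 mice), filled where the difference was tested and open where it is a description. For DHA in WT mice Prox1, Dsp, Trpc6, Tdo2, Stxbp6 and Dock10 lie below 0 by more than 1 SE, and for DHA in Tg2576 mice C1ql2 and Dsp do so.

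Summed over the 8 members, the level was 503 to 585 CPM in WT mice on vehicle and 403 to 517 CPM in those on DHA, and in Tg2576 mice 411 to 474 CPM on vehicle and 387 to 435 CPM on DHA. These sums include Dock10, which was chosen for being lower. Without it the sum was 374 to 456 CPM in WT and 335 to 394 CPM in Tg2576 mice on vehicle, which overlapped. On DHA it was 318 to 435 CPM in WT and 320 to 345 CPM in Tg2576 mice. Between genotypes under vehicle, where Dock10 was chosen for being lower, 5 of the 7 other members had a negative log2 difference, as did 50% of all genes (median -0.17, all genes 0.0003). Of these 7, 2 (Prox1 and Trpc6) did not overlap, where 2.98% of all genes did not overlap in that direction. With Dock10 the median was -0.31. For DHA in WT mice 5 of the 7 were negative, as were 52.7% of all genes (median -0.30, all genes -0.01), and 0 of the 7 were without overlap, where 2.23% of all genes did not overlap in that direction. Dock10, which shares its vehicle mice with the contrast that chose it, did not overlap. These 2 comparisons share the WT vehicle mice. Under DHA the genotypes differed by a median of -0.05 over the 8 members, with 5 of 8 negative (50.7% of all genes). In Tg2576 mice DHA and vehicle differed by a median of -0.02 over the 7 members without Dock10, with 5 of 7 negative (50.9%). None of these 7, the members tested in this comparison, passed p under 0.01 in edgeR, DESeq2 or limma-voom, none had an unadjusted p under 0.05, and 0.353% of all genes passed 0.01 and 3.16% passed 0.05. The DHA effect in Tg2576 minus that in WT mice was 0.54 ± 0.16 for Dock10, 0.47 ± 0.24 for Trpc6, 0.36 ± 0.18 for Prox1, 0.32 ± 0.16 for Stxbp6, 0.47 ± 0.43 for Tdo2, 0.05 ± 0.29 for Dsp, -0.05 ± 0.15 for Calb1 and -0.80 ± 0.42 for C1ql2, given without a test because it contains the contrast that chose Dock10.

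Another 12 markers of dentate granule cells were followed as a second list. Between genotypes under vehicle 11 of 12 were lower in Tg2576 mice (median -0.36), as were 50% of all genes. Of the 12, 4 passed p under 0.01, all lower, where 3.09% of all genes passed and 1.93% passed as lower. This is the contrast that chose Dock10, so the list is not independent of that choice. Sipa1l2, a Rap GTPase-activating protein, fell from 81.7 to 111 CPM in 4 WT mice to 63.3 to 72.9 CPM in 4 Tg2576 mice (log2 -0.42 ± 0.10 SE, edgeR adjusted p = 0.162). Sema5a, a semaphorin that limits granule cell synapse number, fell from 114 ± 19.6 to 80.7 ± 16.6 CPM (log2 -0.50 ± 0.16, adjusted p = 0.287). Npnt, an extracellular matrix ligand of integrins, fell by 0.40 ± 0.13 (adjusted p = 0.287) and Rfx3, a transcription factor, by 0.45 ± 0.15 on the log2 scale (adjusted p = 0.304). As deviations from the group means, Sipa1l2, Sema5a, Rfx3 and Npnt had r of 0.65, 0.61, 0.56 and 0.02 with Dock10. Over the 12 this r ran from -0.72 to 0.80. The part of gene length in this list was not tested. The summed level of the 12 was 561 to 773 CPM in WT mice on vehicle and 532 to 642 CPM on DHA, and in Tg2576 mice 472 to 538 CPM on vehicle and 459 to 539 CPM on DHA. After adjustment 0 of the 12 and 0.0154% of all genes passed between genotypes under vehicle.

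Under DHA, 8 of the 12 were lower in Tg2576 than in WT mice (50.7% of all genes) and 1 passed, where 0.686% of all genes passed as lower. Lct, which encodes lactase, fell from 73.1 ± 23.4 CPM (SD, n = 4) to 37.1 ± 7.49 CPM (n = 3; log2 -0.98 ± 0.31 SE, edgeR adjusted p = 0.560). For DHA in WT mice 10 of the 12 were lower, as were 52.7% of all genes. Sema5a passed, with 81.0 ± 10.5 CPM under DHA (log2 -0.49 ± 0.16, edgeR adjusted p = 0.637), where 0.599% of all genes passed as lower. In Tg2576 mice 6 of 12 were lower under DHA (50.9% of all genes), none passed in edgeR and none had an unadjusted p under 0.05.

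**Figure D3:**
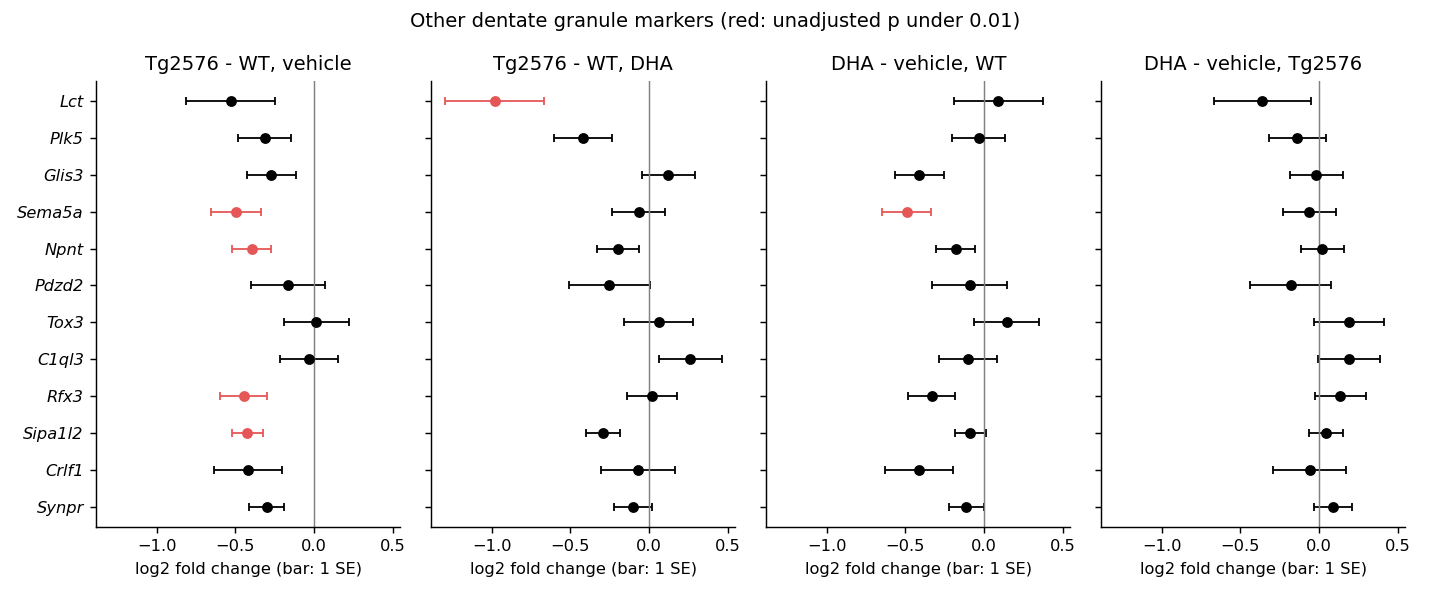
Log2 fold change of the 12 other dentate granule markers in the 4 comparisons (horizontal axes; points, with bars of 1 SE), in red where the unadjusted p of edgeR was under 0.01. In the first panel 11 of the 12 lie below 0 and 4 are red, and in the last panel 6 lie below 0 and none is red.

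Markers of other hippocampal cells were followed in the same comparisons, and their part in the members' values was not tested. The summed level of 6 CA1 pyramidal markers was 713 to 818 CPM in WT vehicle and 871 to 934 CPM in WT DHA mice, without overlap. All 6 were higher under DHA in WT mice, where 52.7% of all genes were lower. Of the 6, 2 passed p under 0.01 (1.38% of all genes), Wfs1 (log2 0.31 ± 0.09, edgeR adjusted p = 0.542) and Mpped1 (0.26 ± 0.07, adjusted p = 0.560). Between genotypes under DHA 4 of the 6 CA1 markers were below 0 and 2 above. There 1 passed (1.75% of all genes), Wfs1, lower in Tg2576 mice (log2 -0.40 ± 0.09, edgeR adjusted p = 0.390). The sum of 5 CA3 pyramidal markers was 181 to 199 CPM in WT vehicle and 153 to 194 CPM in WT DHA mice. Between genotypes under vehicle, the sum of 5 interneuron markers was 695 to 924 CPM in WT and 626 to 686 CPM in Tg2576 mice, and Gad1 (log2 -0.28 ± 0.08, edgeR adjusted p = 0.261) and Gad2 (-0.42 ± 0.14, adjusted p = 0.323) passed, both lower. Of the 5, 3 were below 0 and 2 above, up to 0.39 (median -0.28), and 2 passed as lower, where 1.93% of all genes did. Prox1 is also expressed in some interneurons.

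Immature granule neurons, marked by 6 genes, summed to 39.8 to 49.3 CPM in WT vehicle and 43.1 to 49.9 CPM in WT DHA mice, and Sox11 rose under DHA in WT mice (0.59 ± 0.13, edgeR adjusted p = 0.355) and in vehicle-treated Tg2576 mice (0.42 ± 0.13, adjusted p = 0.266). Sox11 was the only one of the 6 to pass in these 2 comparisons, where 1.38% and 3.09% of all genes passed. For DHA in WT mice 4 of the 6 were below 0 (median -0.37), and between genotypes under vehicle 3 were below and 3 above (median -0.05). Choroid plexus markers summed to 61.5 to 5825 CPM over the mice, with 3104 to 5156 CPM in the 3 Tg2576 DHA mice and 61.5 to 5825 CPM in the WT DHA mice. The sum of 5 pan-neuronal markers was 4444 to 5032 CPM in WT vehicle and 4630 to 4773 CPM in Tg2576 vehicle mice, whose ranges overlapped. Astrocyte markers summed to 2203 to 2432 CPM and 2598 to 3186 CPM in the same groups. Of the 5 astrocyte markers, Gfap, an intermediate filament gene, was the only one to pass between genotypes under vehicle, from 581 ± 60.6 to 1178 ± 268 CPM (SD, n = 4 each; edgeR adjusted p = 0.0766), and 3 of the 5 were below 0 (median -0.07). None of the markers in these lists was at 0 in all mice of a group.

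Genes that work with each member were followed in 8 further lists. In edgeR, 3.09% of all genes passed p under 0.01 between genotypes under vehicle and 1.75% under DHA. For DHA, 1.38% passed in WT mice and 0.353% in Tg2576 mice. Of 8 partners of Prox1 in hippocampal neuron identity, 2 passed as lower between genotypes under vehicle (1.93% of all genes). These were Bcl11b (log2 -0.33 ± 0.10, edgeR adjusted p = 0.287) and Zbtb20 (-0.63 ± 0.20, adjusted p = 0.304). Lhx2 passed as lower in Tg2576 mice under DHA (-0.31 ± 0.09, adjusted p = 0.536), where 0.686% of all genes did. For C1ql2, none of 9 tested relatives and receptors, namely neurexins, kainate receptor subunits, Adgrb3 and the other C1q-like proteins, passed in any of the 4 comparisons in edgeR. At an unadjusted p under 0.05 there were 2 between genotypes under vehicle (10.7% of all genes), 1 under DHA and 0 for DHA in either genotype. Among 7 desmosomal partners of Dsp, Pkp4, a plakophilin, was lower in vehicle-treated Tg2576 mice (log2 -0.30 ± 0.08, edgeR adjusted p = 0.209) and lower again between genotypes under DHA (-0.29 ± 0.09, adjusted p = 0.548). None of 5 tested Trpc channels passed in edgeR, with 1 at an unadjusted p under 0.05 between genotypes under vehicle and 0 in the other 3 comparisons.

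Other calcium-binding proteins were followed beside Calb1. Of 6 tested relatives of Calb1, 2 passed p under 0.01 for DHA in WT mice, both higher, where 1.38% of all genes passed. These were Necab2 (log2 0.44 ± 0.11, edgeR adjusted p = 0.404) and Hpcal1 (0.56 ± 0.14, adjusted p = 0.484), and after adjustment 0% of all genes passed. Of 10 partners of Stxbp6 in vesicle fusion, Stx1a, a syntaxin of the presynaptic membrane, rose under DHA in WT mice from 109 ± 4.44 to 156 ± 8.82 CPM (SD, n = 4 each; log2 0.52 ± 0.14 SE, adjusted p = 0.540), and Stxbp2 rose in vehicle-treated Tg2576 mice (0.36 ± 0.11, adjusted p = 0.290). None of 6 tested kynurenine pathway genes, the partners of Tdo2, passed in edgeR, with 1 at an unadjusted p under 0.05 between genotypes under DHA and 1 for DHA in WT mice. Of 12 partners of Dock10 (other Dock genes, Cdc42 and Rac1) none passed in edgeR. For DHA in WT mice 11 of 12 were below 0 (median -0.18), as were 52.7% of all genes, and for DHA in Tg2576 mice 3 of 12 (median 0.10), where 50.9% of all genes were. At an unadjusted p under 0.05 there were 3 of these 12 between genotypes on vehicle (10.7% of all genes), 3 between genotypes on DHA (6.86%), 2 for DHA in WT mice (5.92%) and 0 for DHA in Tg2576 mice (3.16%).

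Co-variation among mice was described on deviations of log2 CPM from the group means, over 15 mice. These correlations carry no p, and the points share library, scaling and dissection. Among the 7 members without Dock10 the mean r over 21 pairs was 0.22 and 14 pairs were above 0, against a mean of 0.00596 over all pairs of the 11926 genes of at least 5 CPM. The closest pairs were Dsp with Tdo2 (r = 0.70), Stxbp6 with Trpc6 (0.67), C1ql2 with Trpc6 (0.60) and Prox1 with Stxbp6 (0.56). The first 2 stayed at 0.54 and 0.42 without the 2 mice farthest from the median of 1 gene of the pair, chosen anew for each pair. Prox1 and Dsp had r = 0.49, which became 0.18 without the 2 farthest mice of that pair. The highest r of Calb1 was 0.06, with Dsp. Members of the 2 closest pairs also varied with measures of the libraries, whose part in these values was not tested. With the log2 total of reads, Dsp had r = -0.77 and Tdo2 -0.65, and with the mitochondrial percent of reads Trpc6 had 0.67 and Stxbp6 0.63 (0.46 and 0.34 without the 2 farthest mice).

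Dock10 did not move with most of the others within groups. Its r was 0.38 with Dsp and 0.35 with Prox1, and -0.35 to -0.13 with the other 5. Without centring on the group means, its r with Prox1 was 0.77, which includes the group differences given above.

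**Figure D4:**
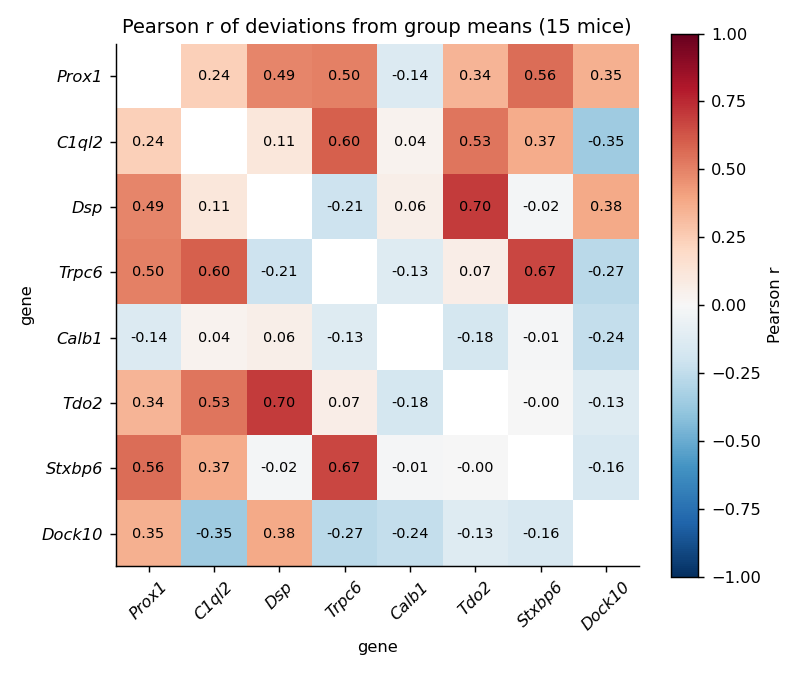
Pearson r between each pair of the 8 members (both axes are genes; colour and printed number are r) over the deviations of 15 mice from their group means. The highest value is 0.70 for Dsp with Tdo2, the lowest -0.35 for C1ql2 with Dock10, and the Calb1 column stays between -0.24 and 0.06.

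With the 12 other dentate markers, whose summed level was taken on the log2 scale, Prox1 had the highest r of the 8 members over the 15 mice, 0.84 (Spearman rho 0.85, and 0.76 without the 2 farthest mice). Dsp had 0.61, Stxbp6 0.51, Dock10 0.35, Tdo2 0.34, Trpc6 0.34, C1ql2 0.23 and Calb1 0.03. Without the 2 farthest mice these were, in the same order, 0.41, 0.44, 0.15, 0.39, 0.34, 0.42 and 0.18. Mice with more Prox1 than their group thus also held more of the other markers taken as a sum, and Calb1 showed little such relation. The members also varied with markers of other fields. With the summed level of the 5 CA3 pyramidal markers C1ql2 had r = 0.75, Tdo2 0.66, Dsp 0.52 and Prox1 0.03. Prox1 had r = 0.58 with astrocyte markers, -0.45 with interneuron and -0.43 with choroid plexus markers. Without the 2 farthest mice these were 0.56, 0.06 and -0.32. With the CA1 markers Dsp had 0.64 and Dock10 0.59 (0.72 and 0.26 without the 2 farthest mice), and the other members -0.24 to 0.33. Dock10 had 0.73 with markers of the subiculum (0.53 without the 2 farthest mice), beside its 0.74 with the length slope. The other members had -0.30 to 0.22 with the subiculum markers. The mean deviation of the 7 members had r = 0.71 with the CA3 markers and 0.63 with the other dentate markers, or 0.46 and 0.64 without the 2 farthest mice. The relation with the dentate markers was thus not shown to be particular to them.

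Of the 11926 genes of at least 5 CPM, those most like the mean deviation of the 7 members were Synpr (r = 0.88), Ppp3ca (0.88), Sertad4 (0.86), Vps35l (0.85), Nrbf2 (0.84) and Slc39a3 (0.83). Synpr encodes synaptoporin, a synaptic vesicle protein of mossy fibres, and is on the list of other dentate markers. The other 11 markers of that list had r of -0.21 to 0.68 with the mean of the 7, and Tox3, Pdzd2, Glis3 and C1ql3 were at or below 0. Ppp3ca is the catalytic subunit of calcineurin. Most like Dock10 were Soga3 (0.96), Snrnp200 (0.95), Rbsn (0.95) and Fam199x (0.94). A total of 561 genes had an r of at least 0.8 with Dock10 and 13 with the mean of the 7. The 100 genes most like Dock10 had a median exonic length of 8882.5 bases, the 100 most like the mean of the 7 3803.5 bases, and all 11926 genes 4800.0 bases.

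**Figure D5:**
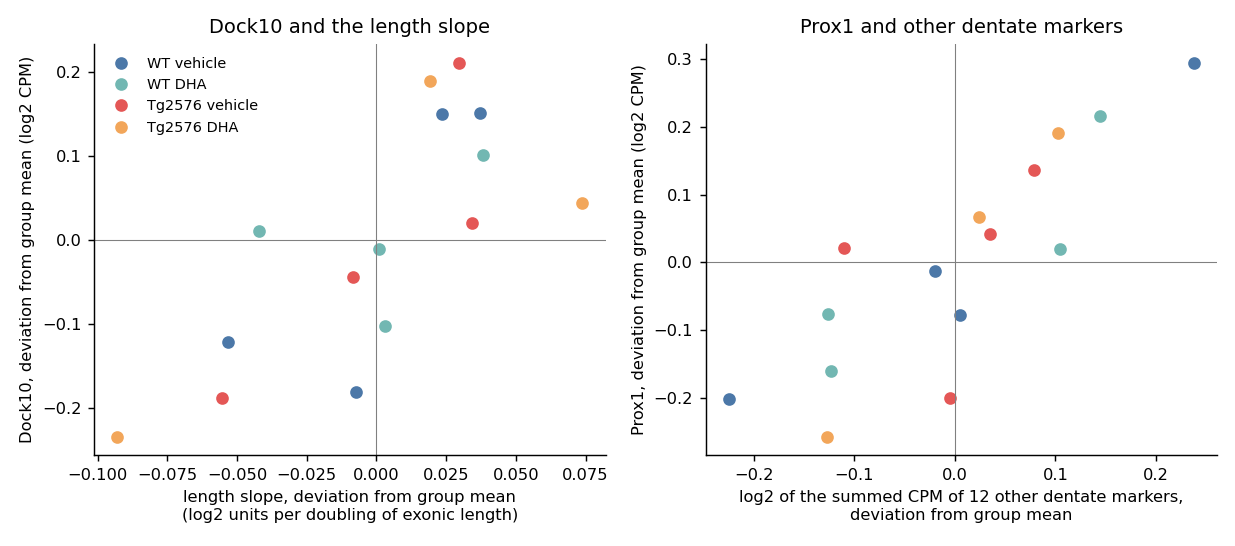
Each point is a mouse, coloured by group; both axes are deviations from the group mean. Left, Dock10 (log2 CPM) against the slope of level on gene length (log2 units per doubling of exonic length), r = 0.74; right, Prox1 (log2 CPM) against the log2 of the summed level of the 12 other dentate markers, r = 0.84.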

How the data were processed

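Hippocampal RNA of 15 mice was sequenced, and the authors deposited raw counts of 55401 genes per mouse, made with STAR 2.6.1c and featureCounts 1.6.0 (default options, no strand) on GENCODE M25 of GRCm38. For the library kit the labels name SMARTER and the study's methods TruSeq Stranded. Of these counts, edgeR 4.0.16 (R 4.3.3; filterByExpr, minimum 10) kept 19536 genes. TMM factors were 0.961 to 1.03. The quasi-likelihood fit (robust option, all 15 mice, 4 group coefficients) gave 2-sided tests, called at an unadjusted p under 0.01, as in the study, and with Benjamini-Hochberg adjustment at 0.05. The standard error is the log2 difference over the root of F. The headers show no more than 1 flow cell lane, so no batch was compared. Log2 CPM used a prior count of 2. The members, lists and tests were chosen with earlier results of these data known. Besides members and App, the text names at most 3 genes per list with the lowest p under 0.01, and the genes most like the members (6 and 4). Rfx3, Lct, Tox3, Pdzd2, Glis3 and C1ql3 were named after their values were seen. Alternatives were DESeq2 1.42.0, limma-voom (limma 3.58.1), other scalings and filters, a replicate block and each mouse left out. Offsets for gene length (lowess span 0.3) were added after the data were seen. Scripts were tested on simulated data.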

Additional observations from a re-analysis of the deposited data

Results flagged for a closer look

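Dsp in WT vehicle replicate 2, at 72.1 CPM, stood apart from the other 3 mice of its group by Dixon's test (gap over range 0.921). It was the only such value among the 24 groups of 4 mice tested over the 8 members, and chance flags about 1 in 20 groups. Tdo2 was below the WT vehicle mean in all 4 Tg2576 vehicle mice and above the WT DHA mean in all 3 Tg2576 DHA mice, and the 2 genotype differences differed by 0.47 on the log2 scale. This difference was not tested. Much of it came from WT DHA replicate 2, at 0.974 CPM. Without that mouse the genotype difference under DHA was 0.04, and the 2 genotype differences differed by 0.19.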

How the results depend on the processing

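With a mouse left out, the median over the 8 members was -0.38 to -0.17 between genotypes under vehicle and 0.25 to 0.42 in the interaction. Both medians include Dock10, which the first contrast chose, so their direction is no sign of stability, and without Dock10 they were -0.17 and 0.32 over all mice. The number of members passing for DHA in WT mice (1) was 2 in a fit of only the groups compared and 0 with the offset for gene length, alone or with the replicate block, and 0 to 2 with a mouse left out. Without WT vehicle replicate 3, Stxbp6 passed beside Prox1, and in the fit of the 2 groups too. The Prox1 call was lost without each of 7 mice, with unadjusted p of 0.0101 to 0.0429 (edgeR, 15 fits in all; smallest difference -0.26, without WT vehicle replicate 2). Between genotypes under DHA the number was 0 to 1 with a mouse left out. For DHA in Tg2576 mice it was 0 in each of the 15 fits. The mean r among the 7 members was 0.17 to 0.26 with a mouse left out.

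Of 21 same-numbered pairs of mice, 4 had r above 0.1 (-0.24 to 0.21). With no pairs of unlike number beside them, these values cannot decide whether the replicate numbers pair the mice. With the replicate block Lct no longer passed between genotypes under DHA, which left 0 other dentate markers, Prox1 for DHA in WT mice kept its call at -0.36, and for DHA in Tg2576 mice Prox1 became 0.0173 and Calb1 0.0108 (0.00957 with the offset too). Without a filter on low counts Prox1 was 0.00679 there. Without TMM factors Dock10 was 0.00638 between genotypes under DHA. Signs also changed with a mouse left out for differences near 0. Between genotypes under DHA, Prox1 ranged over -0.19 to 0.0298, Trpc6 -0.16 to 0.0218, Calb1 -0.0312 to 0.0687 and Dock10 -0.13 to 0.0837. For DHA in WT mice C1ql2 ranged over -0.10 to 0.33 and Calb1 -0.0684 to 0.12, and for DHA in Tg2576 mice Prox1 -0.0986 to 0.12, Calb1 -0.0810 to 0.0197 and Stxbp6 -0.0357 to 0.14. The causes were not tested. With 4 or 3 mice a group, differences within about 2 SE were not resolved, and Tdo2 is further limited by its 30 to 140 reads per mouse.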
